A study of Arabidopsis thaliana with 24 samples.

Results

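The Rubisco small subunit and Calvin cycle genes described here are 10 nuclear genes of Arabidopsis thaliana, taken by gene identifier from the 32548 genes listed at each age. They are the small subunit genes RBCS1A (AT1G67090), RBCS1B (AT5G38430), RBCS2B (AT5G38420) and RBCS3B (AT5G38410), the Rubisco activase gene RCA (AT2G39730), and the chloroplast enzyme genes GAPA (AT3G26650), GAPB (AT1G42970), PRK (AT1G32060), SBPASE (AT3G55800) and FBA2 (AT4G38970). All 10 had values in every library and all 10 passed the filter on low values at both ages. Total RNA of seedlings was sequenced in 24 libraries, 3 for each of 8 groups. Seedlings 12 days old, grown on Murashige and Skoog plates, were hag2 nasp, msi2 msi3 nasp, nasp, hag2 msi2 msi3 or Col-0 wild type (15 libraries, single-end reads of 50 bp). Seedlings 20 days old, grown in a growth chamber, were hag2 msi2 msi3, msi2 msi3 or Col-0 wild type (9 libraries, paired-end reads of 150 bp). All plants were kept at 22 °C with 16 h of light a day, and the labels name neither the alleles nor the number of seedlings in a library.

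HAG2 is a type B histone acetyltransferase, MSI2 and MSI3 are WD40 proteins that bind histones, and NASP is a chaperone of histone H3. In the libraries the mutated transcripts were low where the label says so, with 1 exception. NASP had mean values of 133 in hag2 nasp, 139 for msi2 msi3 nasp and 154 in nasp, against 512 in the wild type of 12 days. MSI2 stood at 92.9% of the wild type at 12 days and 82.1% at 20 days in the libraries labelled hag2 msi2 msi3, while HAG2 and MSI3 were between 14.2% and 17.9% there. Its level in msi2 msi3 nasp was 45.3% of the wild type, and in msi2 msi3 46.2%. Library totals of the deposited values were 19.6 to 21.0 M in the younger seedlings and 45.7 to 48.2 M in the older ones, but how many reads stand behind a value is unknown.

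Rubisco fixes carbon dioxide in the chloroplast stroma. Its large subunit is encoded in the chloroplast genome and its small subunit by the nuclear RBCS family, so that both genomes supply the enzyme. Rubisco activase removes sugar phosphates that block the active site. The products of fixation are reduced by glyceraldehyde-3-phosphate dehydrogenase, whose subunits are GAPA and GAPB. Aldolase (FBA2) and sedoheptulose-1,7-bisphosphatase (SBPASE) take part in rebuilding the acceptor, and phosphoribulokinase (PRK) makes the acceptor ribulose-1,5-bisphosphate itself. These transcripts are among the most abundant of a green leaf, and light raises them.

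In TAIR10.1, RBCS1A lies alone on chromosome 1 (chr1:25048158-25049667, minus strand). The other small subunit genes lie side by side on the minus strand of chromosome 5: RBCS3B at chr5:15376988-15378642, RBCS2B at chr5:15380907-15382071 and RBCS1B at chr5:15383167-15385320. RCA lies at chr2:16570746-16573692, GAPA at chr3:9794862-9797045, GAPB at chr1:16127353-16129895, PRK at chr1:11532199-11534639, SBPASE at chr3:20709294-20711640 and FBA2 at chr4:18163496-18166008. The RBCS cluster spans 8333 bp and holds 2 other annotated genes between its RBCS members. The coding sequences of RBCS1B and RBCS2B were 97.3% identical, those of RBCS2B and RBCS3B 94.3% and those of RBCS1B and RBCS3B 94.1%. RBCS1A shared 87.7% with RBCS3B, 89.9% with RBCS1B and 90.1% with RBCS2B. The 50-base words of the annotated transcripts were compared among the RBCS copies. Of all such words, 1.42% in RBCS1A, 13.9% in RBCS1B, 21.4% in RBCS2B and 14.6% in RBCS3B also occurred in another copy. These percentages do not cover matches to genes outside the RBCS family. How reads that match several copies were counted is not given in the sources used here, so the split among the 3 clustered copies is less certain than their sum.

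The small subunit gene family is known for light-responsive promoter elements, among them the G-box and the I-box. Their letters were searched for here, and whether the sites act was not tested. The 300 bases before the annotated mRNA start nearest the coding sequence were searched on both strands. The annotated genes RBCS1A, RBCS1B and RBCS3B reach farther upstream than this start. The RBCS1A and RBCS3B stretches below therefore lie within the annotated gene, and the RBCS1B stretch crosses the upstream end of its gene. The G-box, CACGTG, was found in 5 of the 10 genes (RBCS1A, RBCS2B, RBCS3B, RCA and PRK) and in 7.38% of 27443 promoters. The I-box, GATAAG, was found in 4 of the 10, which are the 4 RBCS genes, and in 14.8% of all promoters. Neither the evening element, AAAATATCT (2.79% of promoters), nor the CCA1-binding site, AAAAATCT (7.79%), was found in these 10 windows. The stretches below are shown because they let the 4 copies be compared at the same elements, read from the RefSeq TAIR10.1 genome on the minus strand, 5′ to 3′, with the element in capitals.
RBCS1A G-box, chr1:25049491-25049520: ggaattatcttcCACGTGgcattattccag
RBCS2B G-box, chr5:15382177-15382206: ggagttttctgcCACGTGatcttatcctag
RBCS3B G-box, chr5:15378506-15378535: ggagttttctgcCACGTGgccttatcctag
RBCS1A I-box, chr1:25049462-25049491: gcggttcaagccGATAAGggtctcaacacc
RBCS1B I-box, chr5:15385303-15385332: aaagaaagataaGATAAGggtgtcaacacc
RBCS2B I-box, chr5:15382148-15382177: gtggtccaaatcGATAAGggtgtcaacacc
RBCS3B I-box, chr5:15378477-15378506: gtggtgcgtaccGATAAGggtgtcaacacc
RBCS1B has no G-box in the window, and its overlapping I-boxes lie 78 and 73 bases before the start. In RBCS1A the G-box lies 84 bases before the start, in RBCS2B 123 bases and in RBCS3B 107 bases.

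Levels were compared between genes only per kilobase of annotated mRNA. In the wild type at 12 days RBCS1A had the highest of the 10, a mean of 259395 per kb (n = 3). RBCS3B came next with 50507 per kb, followed by RCA with 34577. RBCS1B, with 8044 per kb, and SBPASE, with 6668, were lowest. At 20 days RBCS1A again led in the wild type with 490544 per kb and RBCS3B followed with 172960. RBCS1B was lowest there with 15352 per kb. Because the ages differ in growth conditions, instrument and read length, and their tables were normalized apart, levels were not compared between ages.

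The first question is how a nasp mutation, alone or joined to hag2 or to msi2 msi3, bears on these genes. In the hag2 nasp and the msi2 msi3 nasp seedlings of 12 days, all 10 genes fell below the wild type, 8 of them to between 40.2% and 66.7% of its level, and RBCS3B fell farthest. In nasp alone only RCA passed the test, and it rose. In the libraries labelled hag2 msi2 msi3, the 3 clustered RBCS genes rose. The RCA call in nasp and the RBCS3B call in hag2 msi2 msi3 were near the threshold and ended when single libraries were left out. The labels do not say that replicates came from separate cultures, so all p-values measure the spread between these samples, and all comparisons with one age's wild type share its 3 libraries. In whole seedlings, fewer green cells and less of a transcript per cell cannot be told apart.

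**Figure D1:**
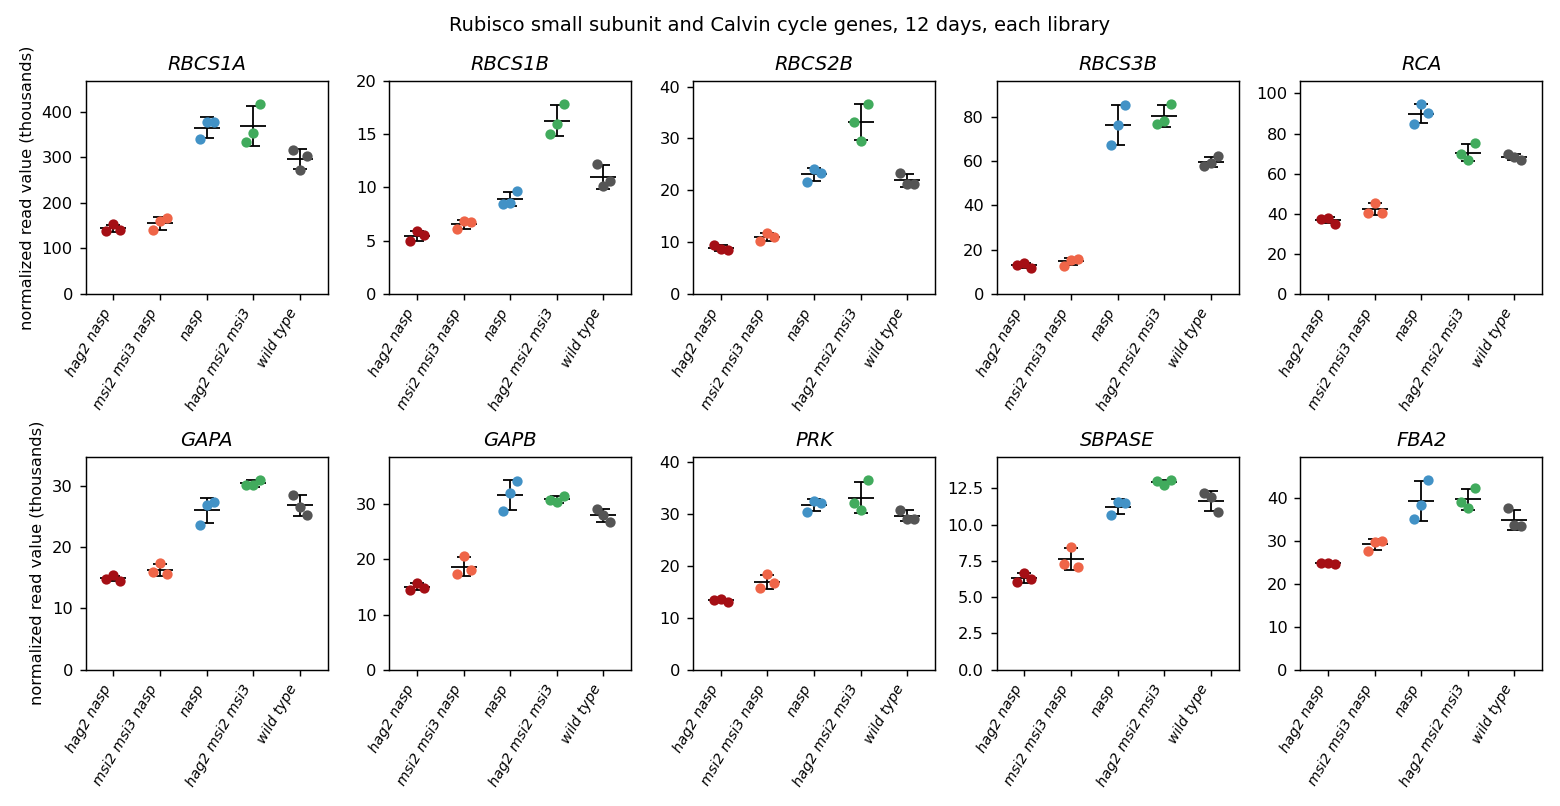
Deposited values of the 10 genes in the 15 libraries of 12 days, 1 panel per gene. Each point is 1 library, each bar the mean of 3, and every point of hag2 nasp and msi2 msi3 nasp lies below every wild type point in all 10 panels.

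RBCS1A, the main small subunit gene, had values of 138458, 152864 and 141123 in hag2 nasp, and of 139412, 160095 and 166064 in msi2 msi3 nasp. In nasp they were 340033, 378466 and 377918, in libraries labelled hag2 msi2 msi3 334131, 353684 and 417507, and in the wild type 315206, 272100 and 302159. All 6 libraries that combine nasp with another mutation lay below all wild type libraries, and both other mutants lay wholly above them. The log2 fold change was −1.04 ± 0.17 (SE) in hag2 nasp (limma, adjusted p = 2.95e-05) and −0.94 in msi2 msi3 nasp (adjusted p = 9.04e-05). In nasp it was 0.30 (adjusted p = 0.421) and in libraries labelled hag2 msi2 msi3 0.31 (adjusted p = 0.368), so the lack of overlap there was not matched by a call.

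RBCS3B, the second most abundant copy, had values of 12900, 13830 and 11870 in hag2 nasp, and of 12715, 15535 and 15690 in msi2 msi3 nasp. In nasp they were 67452, 76558 and 85283, in libraries labelled hag2 msi2 msi3 76659, 78393 and 86011, and in the wild type 57923, 59195 and 62283. The groups combining nasp with another mutation stood far below all others, at 21.5% and 24.5% of the wild type mean, and nasp and hag2 msi2 msi3 libraries stood above it without overlap. The log2 fold change was −2.22 ± 0.11 in hag2 nasp (limma, adjusted p = 4.24e-12) and −2.04 in msi2 msi3 nasp (adjusted p = 1.23e-11). In nasp it was 0.35 ± 0.11 (adjusted p = 0.0828). In libraries labelled hag2 msi2 msi3 RBCS3B rose by 0.43 ± 0.11 on the log2 scale (adjusted p = 0.0313), a call that ended without any 1 of the 6 libraries compared (adjusted p from 0.0636 to 0.113) and in the fit without a variance trend (adjusted p = 0.0602).

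RBCS2B, the middle gene of the cluster, had values of 9449, 8628 and 8414 in hag2 nasp, and of 10222, 11668 and 10992 in msi2 msi3 nasp. In nasp they were 21625, 24144 and 23372, in libraries labelled hag2 msi2 msi3 33184, 29609 and 36682, and in the wild type 23381, 21295 and 21158. Only nasp overlapped the wild type. It fell by 1.31 ± 0.09 on the log2 scale in hag2 nasp (limma, adjusted p = 2.2e-10), and it fell to 49.9% of the wild type mean in msi2 msi3 nasp (adjusted p = 8.39e-09). It rose by 0.59 in libraries labelled hag2 msi2 msi3 (adjusted p = 0.000521), and in nasp the log2 fold change was 0.07 (adjusted p = 0.776).

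RBCS1B, the least abundant copy, had values of 4926, 5882 and 5547 in hag2 nasp, and of 6054, 6884 and 6709 in msi2 msi3 nasp. In nasp they were 8439, 8559 and 9652, in libraries labelled hag2 msi2 msi3 15029, 15987 and 17864, and in the wild type 12249, 10127 and 10613. It was the only 1 of the 10 genes whose nasp libraries all lay below the wild type, at 80.8% of its mean. The log2 fold change was −1.01 ± 0.09 in hag2 nasp (limma, adjusted p = 1.28e-08), −0.75 in msi2 msi3 nasp (adjusted p = 6.84e-07) and −0.31 in nasp (adjusted p = 0.0676). In libraries labelled hag2 msi2 msi3 it rose by 0.57 (adjusted p = 0.0011).

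RCA, the activase gene, had values of 37320, 37673 and 34892 in hag2 nasp, and of 40580, 45574 and 40249 in msi2 msi3 nasp. In nasp they were 84877, 94555 and 90432, in libraries labelled hag2 msi2 msi3 69717, 66611 and 75092, and in the wild type 69672, 68406 and 66999. Its nasp libraries were all higher than those of every other group, and the libraries labelled hag2 msi2 msi3 overlapped the wild type. RCA fell by 0.90 ± 0.10 on the log2 scale in hag2 nasp (limma, adjusted p = 1.77e-07) and by 0.70 in msi2 msi3 nasp (adjusted p = 4.17e-06). With quantile normalization the log2 fold change of RCA was −0.50 in hag2 nasp, still called, and in msi2 msi3 nasp it was −0.18 and the call ended (adjusted p = 0.164). RCA rose by 0.39 ± 0.10 in nasp (adjusted p = 0.0253). Without wild type replicate 1, 2 or 3, or without nasp replicate 2 or 3, the nasp call ended (adjusted p from 0.0568 to 0.128), as it did with no filter on low values (adjusted p = 0.0516) and with quantile normalization (log2 fold change 0.16, adjusted p = 0.528). RCA overlaps AT2G39725 on the opposite strand, and whether the counting used strand is not stated.

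PRK, which makes the carbon dioxide acceptor, had values of 13413, 13590 and 13075 in hag2 nasp, and of 15621, 18373 and 16720 in msi2 msi3 nasp. In the wild type they were 30787, 29022 and 28882. The mutant libraries stood at 45.2% and 57.2% of the wild type mean with no overlap. PRK fell by 1.15 ± 0.08 on the log2 scale in hag2 nasp (limma, adjusted p = 7.28e-10) and by 0.81 in msi2 msi3 nasp (adjusted p = 7.42e-08). It overlaps AT1G32070 on the opposite strand, a gene at 63.6% and 62.3% of the wild type in these mutants.

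GAPA and GAPB, the subunits of the reducing enzyme, fell in the same mutants. GAPA had values of 14825, 15415 and 14496 in hag2 nasp, of 16051, 17430 and 15580 in msi2 msi3 nasp, and of 28611, 26696 and 25319 in the wild type. GAPB had values of 14539, 15756 and 14788 in hag2 nasp, of 17382, 20666 and 18070 in msi2 msi3 nasp, and of 29157, 28108 and 26847 in the wild type. Both genes lay wholly below the wild type in both mutants. GAPA fell by 0.85 and 0.72 on the log2 scale in hag2 nasp and msi2 msi3 nasp (limma, adjusted p = 2.05e-08 and 1.9e-07), and GAPB by 0.90 and 0.59 (adjusted p = 2.62e-08 and 5.96e-06). GAPA overlaps AT3G26640 on the same strand.

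SBPASE, a phosphatase particular to the cycle, had values of 6052, 6681 and 6216 in hag2 nasp, of 7287, 8484 and 7050 in msi2 msi3 nasp, and of 12164, 11900 and 10883 in the wild type. It fell by 0.88 and 0.62 on the log2 scale in these mutants (limma, adjusted p = 4.69e-09 and 5.07e-07). FBA2, a plastid aldolase, had values of 24779, 24740 and 24672 in hag2 nasp, of 27668, 29791 and 29933 in msi2 msi3 nasp, and of 37560, 33625 and 33333 in the wild type. Its groups did not overlap either, but its fold changes were the smallest of the 10. FBA2 fell by 0.49 ± 0.09 on the log2 scale in hag2 nasp (limma, adjusted p = 0.000129) and by 0.26 in msi2 msi3 nasp (adjusted p = 0.0204). Leaving out wild type replicate 1 (adjusted p = 0.0918) or msi2 msi3 nasp replicate 1 (adjusted p = 0.0704) ended the second call. With quantile normalization its log2 fold change was −0.32 in hag2 nasp, still called, and −0.02 in msi2 msi3 nasp (adjusted p = 0.856). For the 5 enzyme genes PRK, GAPA, GAPB, SBPASE and FBA2, log2 fold changes in nasp ran from −0.05 to 0.18 (adjusted p from 0.314 to 0.847), and in libraries labelled hag2 msi2 msi3 from 0.14 to 0.19 (adjusted p from 0.215 to 0.407), and limma called none in either.

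In hag2 nasp against the wild type, 10 of 10 genes thus fell and 0 rose, with a median log2 fold change of −0.96, where 33.2% of the 24305 genes tested fell and 33.1% rose. In msi2 msi3 nasp, 10 of 10 fell with a median of −0.73, where 33.3% of all genes fell and 33.6% rose. About 2 in 3 of all genes changed in these mutants, so a call by itself was common there. In nasp 1 of 10 rose (RCA) and 0 fell, where 2.5% of all genes rose and 1.39% fell, and 4 of the 10 had an unadjusted p below 0.05, as did 15.7% of all genes. RBCS3B was called as well without nasp replicate 1 (adjusted p = 0.0438), and RBCS1B, as fallen, with scaling to library totals (adjusted p = 0.0221). In libraries labelled hag2 msi2 msi3, 3 of 10 rose (RBCS1B, RBCS2B and RBCS3B) and 0 fell, where 2.08% of all genes rose and 1.96% fell. There 5 of the 10 had an unadjusted p below 0.05, as did 17.6% of all genes. Counted by overlap alone, all 10 genes lay wholly below the wild type in hag2 nasp, where 35.3% of all genes did, and in msi2 msi3 nasp, where 35.1% did. In nasp RBCS1A, RBCS3B and RCA lay wholly above it and RBCS1B wholly below, where 13% of all genes lay above and 10.3% below. In the libraries labelled hag2 msi2 msi3, 8 of the 10 lay wholly above it, where 12% of all genes did, and RCA and PRK overlapped it.

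**Figure D2:**
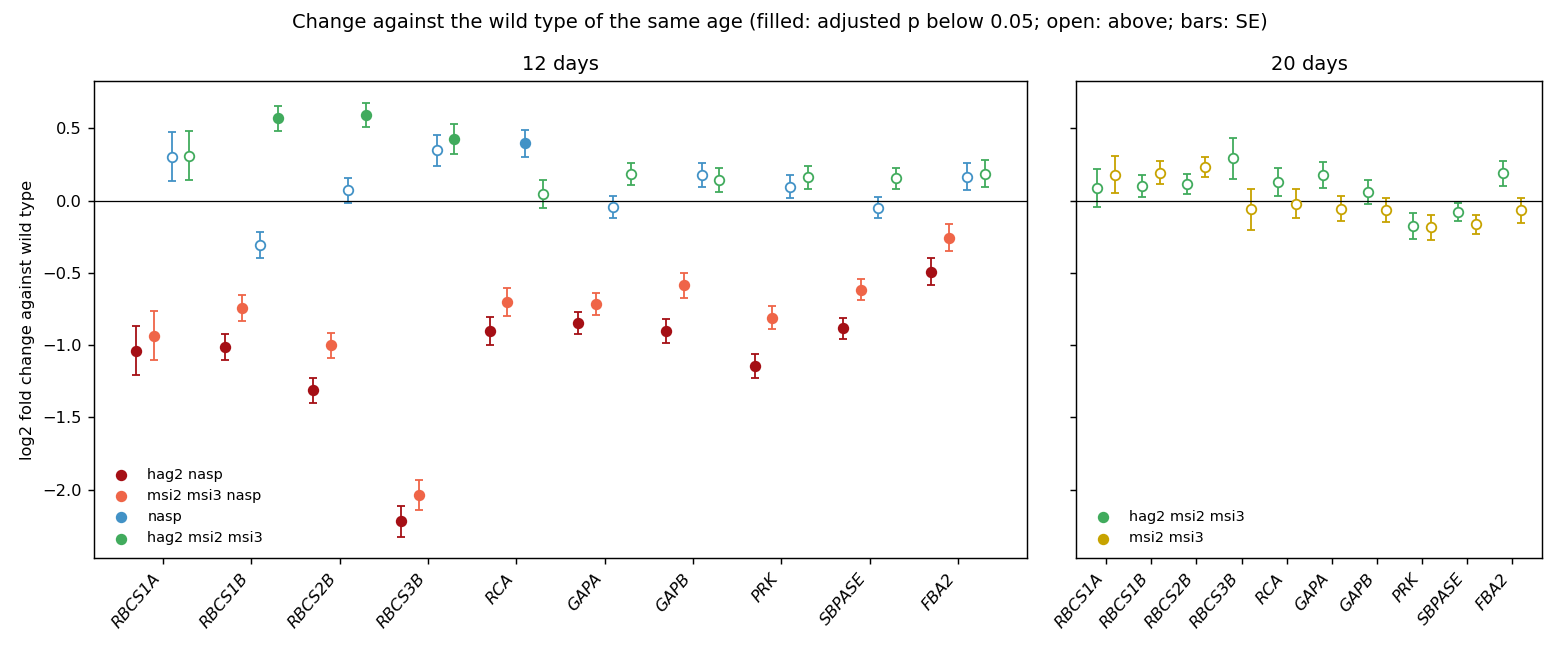
Log2 fold changes of the 10 genes against the wild type of the same age, by mutant, with bars of 1 standard error of the limma fit. At 12 days both mutants that combine nasp with another mutation lie below 0 for all 10 genes, RBCS3B lowest at −2.22 and −2.04, while at 20 days all values lie between −0.19 and 0.29.

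Set against nasp alone, the additional mutations went with a lower level of every one of these genes. In hag2 nasp against nasp 10 of 10 fell, with a median log2 fold change of −1.16 and values from −2.57 (RBCS3B) to −0.66 (FBA2), where 33.3% of all genes fell and 33.5% rose. In msi2 msi3 nasp against nasp 10 of 10 fell, with a median of −0.84 and values from −2.38 (RBCS3B) to −0.42 (FBA2), where 33.3% of all genes fell and 33.6% rose. With quantile normalization the FBA2 call in msi2 msi3 nasp against nasp ended (−0.0049 on the log2 scale, adjusted p = 0.968). Other calls held but were over 1.5 times smaller with it. In hag2 nasp these log2 fold changes against nasp were −0.73 (RBCS1A), −0.66 (RCA), −0.53 (GAPA) and −0.30 (FBA2), and in msi2 msi3 nasp −0.73 (RBCS1A), −0.34 (RCA) and −0.47 (GAPB). Libraries of hag2 alone, or of msi2 msi3 alone at 12 days, were not analysed here, so how these mutations combine was not tested.

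The mutants that combine nasp with another mutation also differed a little from each other. In hag2 nasp against msi2 msi3 nasp all 10 log2 fold changes were negative, with a median of −0.25. PRK (−0.34, limma, adjusted p = 0.0179), GAPB (−0.31, adjusted p = 0.0312), SBPASE (−0.26, adjusted p = 0.0347) and RBCS2B (−0.31, adjusted p = 0.036) were lower in hag2 nasp, 4 of 10, where 3.26% of all genes fell and 3.07% rose. RBCS3B (−0.18, adjusted p = 0.376) and RBCS1A (−0.10, adjusted p = 0.808) did not pass the test. At an unadjusted p below 0.05 there were 6 of the 10 and 19.4% of all genes. Each of the 4 calls ended in a fit of these 6 libraries alone (adjusted p from 0.062 to 0.125) and without msi2 msi3 nasp replicate 2 (adjusted p from 0.0838 to 0.164) or hag2 nasp replicate 3 (adjusted p from 0.0526 to 0.107). Without hag2 nasp replicate 1, 3 of the 4 were lost (adjusted p from 0.0519 to 0.13), and without hag2 nasp replicate 2 or msi2 msi3 nasp replicate 3 RBCS2B was lost (adjusted p = 0.109 and 0.0577). In the fit without a variance trend RBCS2B and SBPASE were lost (adjusted p = 0.0728 and 0.0776).

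The nasp seedlings and those labelled hag2 msi2 msi3 differed in 3 of the 10 genes. In nasp against hag2 msi2 msi3, the log2 fold change of RBCS1B was −0.87 (limma, adjusted p = 3.13e-06), that of RBCS2B −0.52 (adjusted p = 0.000546) and that of RCA 0.35 (adjusted p = 0.0253). That makes 1 of 10 risen and 2 of 10 fallen, where 5.55% of all genes rose and 5.13% fell. At an unadjusted p below 0.05 there were 5 of the 10 and 23.5% of all genes. The RCA call ended with quantile normalization (log2 fold change 0.06, adjusted p = 0.795) and without hag2 msi2 msi3 replicate 1 or 2 or nasp replicate 2 or 3 (adjusted p from 0.064 to 0.109). Further genes were called as fallen under some settings. Scaling to library totals added GAPA (adjusted p = 0.0326) and SBPASE (adjusted p = 0.0472). Quantile normalization added GAPA (adjusted p = 0.0383) and RBCS3B (−0.40, adjusted p = 0.0165), and a fit of these groups alone added SBPASE (adjusted p = 0.0326).

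The 4 small subunit genes made up 0.861% ± 0.0534 of the deposited total in hag2 nasp, 0.942% ± 0.0711 in msi2 msi3 nasp, 2.28% ± 0.115 in nasp and 2.45% ± 0.225 in libraries labelled hag2 msi2 msi3, against 1.93% ± 0.112 in the wild type (SD, n = 3 each). All 10 genes made up 1.42% in hag2 nasp, 1.60% in msi2 msi3 nasp, 3.39% in nasp and 3.53% in libraries labelled hag2 msi2 msi3, against 2.92% in the wild type. With RBCS1B, RBCS2B and RBCS3B summed, so that reads moved between them do not matter, the log2 fold change was −1.77 ± 0.11 in hag2 nasp (limma, adjusted p = 9.39e-11) and −1.53 in msi2 msi3 nasp (adjusted p = 6.87e-10). It was 0.22 in nasp (adjusted p = 0.338) and 0.48 in libraries labelled hag2 msi2 msi3 (adjusted p = 0.0169). The sum of all 4 copies changed by −1.18 ± 0.19 in hag2 nasp (limma, adjusted p = 2.19e-05) and by −1.06 in msi2 msi3 nasp (adjusted p = 7.4e-05). It was not called in nasp (0.28, adjusted p = 0.513) or in libraries labelled hag2 msi2 msi3 (0.35, adjusted p = 0.352).

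The make-up of the small subunit pool differed too. RBCS3B held 7.51% ± 0.353 of the summed RBCS value for hag2 nasp and 7.81% ± 0.231 for msi2 msi3 nasp, against 15.4% ± 1.11 in the wild type (SD, n = 3 each). RBCS1A held 84.1% ± 0.527 for hag2 nasp and 82.8% ± 0.408 for msi2 msi3 nasp, against 76.1% ± 1.05 in the wild type. None of these groups overlapped the wild type, and each exact permutation test gave a 2-sided p = 0.1, the smallest possible with 3 against 3 (0.24 after Benjamini-Hochberg adjustment over 24 shares tested). Shares of 1 pool depend on each other, so the RBCS1A and RBCS3B differences are not separate results. RBCS1B held 3.18% in hag2 nasp, which overlapped the wild type's 2.82%, and 3.50% in msi2 msi3 nasp, which did not. In nasp the share of RBCS1B was 1.88% ± 0.105, below all wild type libraries (exact permutation p = 0.1). The RBCS2B share in nasp, 4.87% against 5.64% in the wild type, did not overlap either (exact permutation p = 0.1). In libraries labelled hag2 msi2 msi3 RBCS2B held 6.67% ± 0.522, against 5.64% ± 0.273 in the wild type, without overlap (exact permutation p = 0.1). The same held there for RBCS1A (73.9% against 76.1%) and RBCS1B (3.27% against 2.82%), each with an exact permutation p = 0.1. Per kilobase, RBCS3B had rank 4 among the 10 genes in hag2 nasp (10867) and also in msi2 msi3 nasp (12370), against rank 2 in the wild type.

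**Figure D3:**
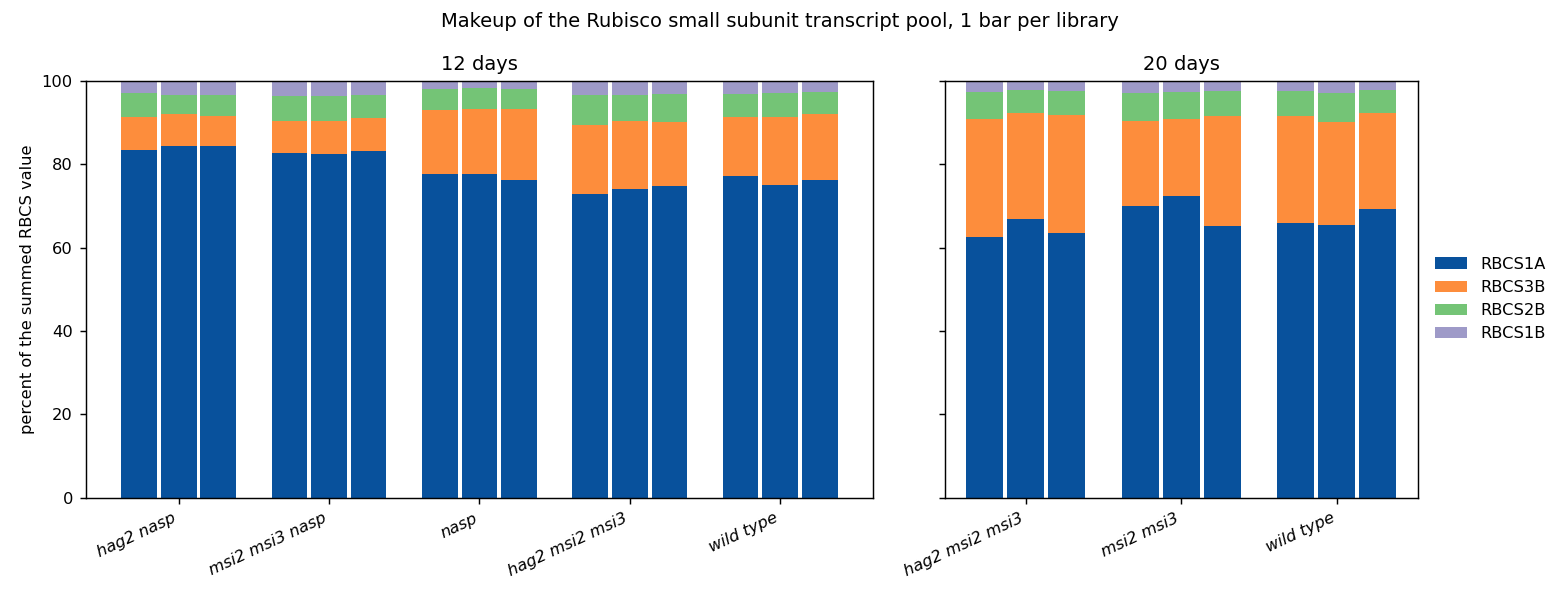
Share of each small subunit gene in the summed value of the 4 RBCS genes, in percent, by group and age, as stacked bars, each bar a single library. The RBCS3B share in hag2 nasp and msi2 msi3 nasp is 7.51% and 7.81%, against 15.4% in the wild type of 12 days.

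The other genes of the pathway were counted in lists. Among 11 other plastid enzymes of the Calvin cycle, 8 fell and 2 rose in hag2 nasp (median log2 fold change −0.50), and 7 fell and 3 rose in msi2 msi3 nasp (median −0.47). The lowest was GAPA2, the second gene for the GAPA subunit, with values of 7807, 8786 and 8244 in hag2 nasp, against 21401, 19637 and 18918 in the wild type (−1.27, limma, adjusted p = 2.23e-10). The highest was TKL2, the less abundant transketolase gene, with 2702, 2487 and 2759 in hag2 nasp, against 881, 1023 and 952 in the wild type (1.48, adjusted p = 1.63e-12). The aldolase gene FBA3 rose with it in both mutants (0.80 and 0.74), and FBA1 rose in msi2 msi3 nasp (0.37). In nasp limma called 0 of the 11 (4 at an unadjusted p below 0.05), and FBA1 (0.33) and RPI3 (0.27), an isomerase gene, rose in libraries labelled hag2 msi2 msi3.

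Of 6 genes that regulate the cycle through thioredoxin, the linker protein CP12 or removal of an inhibitor, 5 fell in each of these mutants, with medians of −1.05 for hag2 nasp and −0.83 for msi2 msi3 nasp. TRXF2, a thioredoxin f, was lowest (−1.41 for hag2 nasp and −1.37 for msi2 msi3 nasp), and CP12-3, at 0.25 in both, did not pass the test. TRXF2 rose in nasp (0.36), and CP12-2 rose in libraries labelled hag2 msi2 msi3 (0.37). Of 10 genes for Rubisco assembly factors and chaperonins, 9 fell in hag2 nasp (median −0.70) and 8 in msi2 msi3 nasp (median −0.49). RBCX1, an assembly chaperone of the large subunit, was lowest at −2.17 for hag2 nasp and −1.86 for msi2 msi3 nasp. RBCX2 rose in nasp (0.29), and CPN60A1 (0.26), CPN60B1 (0.33), CPN60B2 (0.38) and BSD2 (0.34) rose in libraries labelled hag2 msi2 msi3.

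Photorespiration, which recovers the product of Rubisco's reaction with oxygen, went the same way. Of 12 genes tested, 12 fell in hag2 nasp (median −0.96) and 11 in msi2 msi3 nasp (median −0.54). The lowest was PLGG1, the plastid exporter of glycolate, at −2.27 for hag2 nasp and −1.93 for msi2 msi3 nasp. The highest were the aminotransferase gene GGT1 in hag2 nasp (−0.43) and the glycolate oxidase gene GOX1 in msi2 msi3 nasp (−0.19). GGT1 rose in nasp (0.29), and limma called 0 of 12 in libraries labelled hag2 msi2 msi3 (3 at an unadjusted p below 0.05).

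The cytosolic counterparts of these enzymes, most of which work in glycolysis, went the other way. Of 7 genes, 6 rose and 1 fell in both mutants that combine nasp with another mutation, with medians of 0.34 for hag2 nasp and 0.24 for msi2 msi3 nasp. GAPC1, the cytosolic glyceraldehyde-3-phosphate dehydrogenase, had 22683, 22954 and 23245 in hag2 nasp, against 12339, 13178 and 12569 in the wild type (0.86), and was 0.89 higher in msi2 msi3 nasp. The 1 that fell was CYFBP, the cytosolic fructose-1,6-bisphosphatase of sucrose synthesis, at −1.05 for hag2 nasp and −0.72 for msi2 msi3 nasp. In nasp and in libraries labelled hag2 msi2 msi3, limma called 0 of 7, with 2 at an unadjusted p below 0.05 in each.

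**Figure D4:**
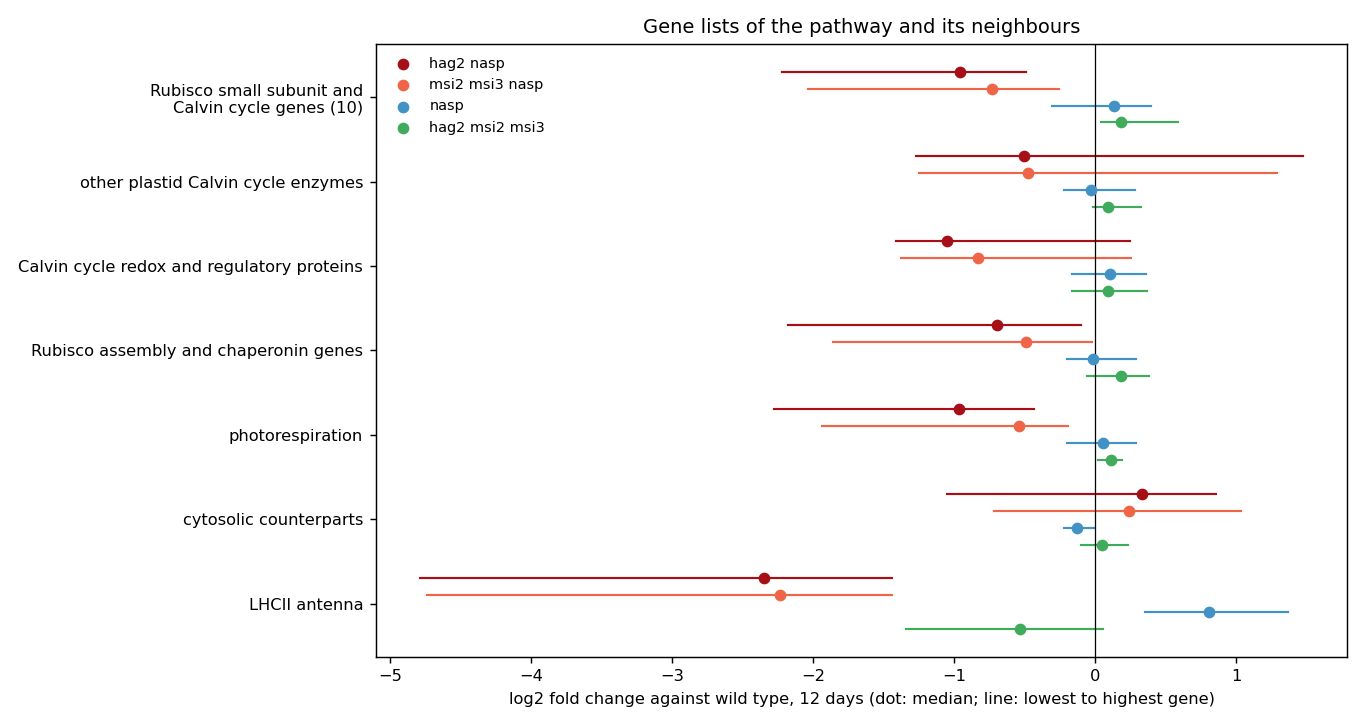
Log2 fold changes against the wild type at 12 days of the 10 genes and of the lists of related genes, by mutant. Each dot is the median of a list, and each line runs from its lowest to its highest gene. For hag2 nasp and msi2 msi3 nasp, medians of the 10 genes are −0.96 and −0.73, those of the cytosolic counterparts 0.34 and 0.24, and those of the light-harvesting antenna −2.34 and −2.23.

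Antenna genes, light regulators and clock genes are given beside these values because light and the clock set when photosynthesis genes are read. Of 8 LHCII antenna genes tested, 8 fell in hag2 nasp (median −2.34) and 8 in msi2 msi3 nasp (median −2.23), so that the antenna's medians lay below that of the 10 genes. In nasp 7 of the 8 rose (median 0.81), and in libraries labelled hag2 msi2 msi3 LHCB1.4, LHCB2.1, LHCB2.2 and LHCB2.3 fell and 0 rose (median −0.53), while 3 of the RBCS genes rose. Of 10 regulators of light response and greening, 4 rose and 5 fell in hag2 nasp, from PIF4 (−1.60) to HYH (0.78). In msi2 msi3 nasp 4 rose and 5 fell as well, from GLK2 (−1.40), a factor that drives photosynthesis genes, to HYH (1.38). In nasp 2 of the 10 rose, GLK2 (0.83) and PIF5 (0.60). In libraries labelled hag2 msi2 msi3 CGA1 rose (0.67), and GLK2 (−0.68), PIF5 (−0.47), PIF4 (−0.42) and GLK1 (−0.27) fell. Of 10 clock genes, 7 fell and 0 rose in hag2 nasp, from CCA1 (−2.15) to LHY (0.46, not called), and 5 fell and 2 rose in msi2 msi3 nasp, from CCA1 (−1.11) to LHY (1.27). In nasp 5 rose and 2 fell, from TOC1 (−0.44) to CCA1 (1.61), and in libraries labelled hag2 msi2 msi3 4 fell and 1 rose, from CCA1 (−2.94) to TOC1 (0.33). Whether time of day at harvest differed is not given, and the part of the clock in these values was not tested.

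Organ make-up was followed with root markers. Of 12, 10 fell and 2 rose in hag2 nasp, and 10 fell and 1 rose in msi2 msi3 nasp, from IRT1 (−4.52 and −4.49) to NRT2.1 (2.99 and 3.04). In nasp and in libraries labelled hag2 msi2 msi3, limma called 0 of the 12, with 0 and 1 at an unadjusted p below 0.05. The summed value of the list was 60247 to 68878 in hag2 nasp, 51429 to 61349 in msi2 msi3 nasp, 44943 to 51934 in nasp and 45378 to 47910 in libraries labelled hag2 msi2 msi3, against 50353 to 58547 in the wild type, and none of the 12 was at 0 in all libraries of a group. The sum was thus higher in hag2 nasp than in the wild type while most members were lower. Of 6 tapetum and anther markers, 2 were tested at 12 days and AMS fell in hag2 nasp (−1.21), and the list's sums stayed between 1.92 and 14.1 in all 15 libraries. The part of organ make-up in the values of the 10 genes was not tested.

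By their pattern over the 15 libraries of 12 days, the non-member genes most like RBCS1A were HCF106 (Pearson r = 0.993), a subunit of the thylakoid protein translocase, AT3G10060 (0.991), PSB27 (0.990), LHCB4.1 (0.990) and RPL12-A (0.990). Those most like the mean of the 10 genes were CRB (0.997), a chloroplast RNA-binding protein, the carbonic anhydrase gene CA1 (0.996), AT5G07020 (0.994), AT1G17850 (0.994) and Lhca6 (0.994). These values describe log2 levels of 22868 genes in the same libraries. For all 10 genes the 6 libraries that combine nasp with another mutation lay below the wild type, so the libraries form separate clusters and r has no test.

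The second question is whether msi2 msi3, with or without hag2, changes these genes at 20 days. None of the 10 genes passed the test at that age. RBCS1A had values of 521881, 630653 and 626303 in libraries labelled hag2 msi2 msi3, and of 649485, 612500 and 627727 in msi2 msi3, against 543038, 483239 and 655800 in the wild type, and all groups overlapped. RBCS2B had values of 54132, 52147 and 56051 in libraries labelled hag2 msi2 msi3, and of 63749, 55548 and 57340 in msi2 msi3, against 48784, 49856 and 51204 in the wild type. It was the only 1 of the 10 to lie wholly above the wild type in both mutants. Its log2 fold change in msi2 msi3 was 0.24 ± 0.07 (limma, adjusted p = 0.0533), the nearest to the threshold of the 10.

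RBCS3B had values of 236312, 238191 and 277695 in libraries labelled hag2 msi2 msi3, and of 189429, 156636 and 252948 in msi2 msi3, against 211480, 183075 and 219800 in the wild type. The hag2 msi2 msi3 libraries lay above the wild type and msi2 msi3 overlapped it, and the log2 fold change in hag2 msi2 msi3 was 0.29 ± 0.14 (limma, adjusted p = 0.309). PRK had values of 53228, 39711 and 45852 in libraries labelled hag2 msi2 msi3, and of 46155, 47214 and 43417 in msi2 msi3, against 52677, 49832 and 53076 in the wild type. Its msi2 msi3 libraries lay wholly below the wild type (−0.19, adjusted p = 0.247), as did those of SBPASE (−0.16, adjusted p = 0.149). FBA2 lay above the wild type in libraries labelled hag2 msi2 msi3 (0.19, adjusted p = 0.277), and the other genes overlapped it. By overlap alone, 3 of the 10 lay wholly above the wild type in libraries labelled hag2 msi2 msi3, where 12.3% of all genes did. In msi2 msi3 1 of the 10 lay wholly above and 2 below, where 13.7% of all genes lay above and 13.9% below.

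**Figure D5:**
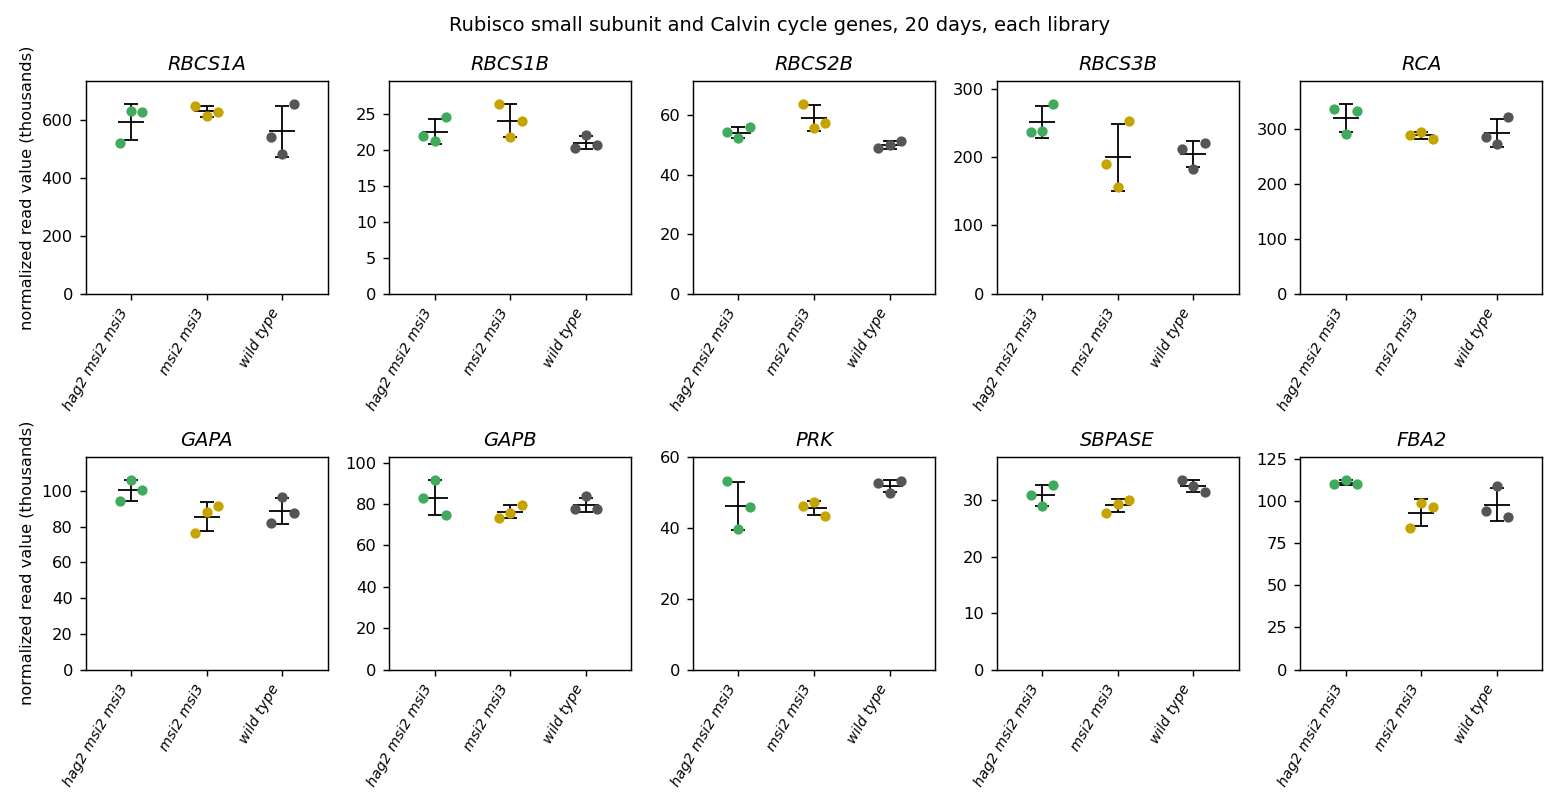
Deposited values of the 10 genes in the 9 libraries of 20 days, 1 panel per gene. Each point is 1 library and each bar the mean of 3; RBCS2B is the only panel in which both mutants lie wholly above the wild type.

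In msi2 msi3 against the wild type, limma called 0 of 10, with log2 fold changes from −0.19 to 0.24, where 7.6% of the 23707 genes tested were called. At an unadjusted p below 0.05 there were 3 of the 10 and 21.6% of all genes. With a minimum value of 5 in place of 1, with scaling to library totals, with quantile normalization and in a fit of these groups alone, RBCS2B was called (adjusted p from 0.0247 to 0.0457). In libraries labelled hag2 msi2 msi3, limma called 0 of 10, from −0.17 to 0.29, where 4.29% of all genes were called. At an unadjusted p below 0.05 there were 1 of the 10 and 17.6% of all genes. Without hag2 msi2 msi3 replicate 1, PRK was called there (−0.28, adjusted p = 0.0489). In hag2 msi2 msi3 against msi2 msi3, limma called 0 of 10, from −0.12 to 0.35 (RBCS3B, adjusted p = 0.321), where 1.19% of all genes were called, and 3 of the 10 had an unadjusted p below 0.05, as did 12.4% of all genes. The RBCS genes made up 1.92% ± 0.151 of the deposited total in libraries labelled hag2 msi2 msi3 and 1.97% ± 0.11 in msi2 msi3, against 1.76% ± 0.216 in the wild type (SD, n = 3 each), with overlapping libraries in every pool share.

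Of the related lists at 20 days, TRXF1 fell in msi2 msi3 (−0.37) and FBA1 rose in libraries labelled hag2 msi2 msi3 (0.30). In either mutant limma called 0 of 10 assembly genes, 0 of 13 photorespiration genes and 0 of 7 cytosolic counterparts. At an unadjusted p below 0.05 these counts were 1, 1 and 0 in libraries labelled hag2 msi2 msi3, and 0, 2 and 1 in msi2 msi3. Of 8 antenna genes LHCB2.2 (−0.34) and LHCB2.3 (−0.32) fell in msi2 msi3, and limma called 0 in libraries labelled hag2 msi2 msi3 (1 at an unadjusted p below 0.05). GLK1, GLK2 and PIF4 fell in both 20-day mutants, PIF5 fell in msi2 msi3 and CGA1 rose there (0.61). The clock genes CCA1 and PRR9 fell in both, LUX rose in libraries labelled hag2 msi2 msi3, and PRR5 and TOC1 rose in msi2 msi3. The summed tapetum and anther markers were 536 to 549 in libraries labelled hag2 msi2 msi3 and 669 to 825 in msi2 msi3, against 70.3 to 114 in the wild type, and A9, ATA7, AMS and MS1 rose in each mutant. The summed root markers were 11063 to 11647 in libraries labelled hag2 msi2 msi3 and 8594 to 9105 in msi2 msi3, against 12481 to 13907 in the wild type, and of 9 tested PYK10 fell in both mutants and CASP1 and NRT2.1 fell in msi2 msi3. The part of organ make-up in the 20-day values was not tested.

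Whether the libraries labelled hag2 msi2 msi3 differed from the wild type otherwise at 20 than at 12 days was tested as an interaction. Age, growth conditions, instrument, read length and the separate normalization cannot be told apart in this test. Limma called 0 of 10, where 0.822% of the 22878 genes tested were called, and 4 of the 10 had an unadjusted p below 0.05, as did 11.7% of all genes. The differences nearest the threshold were those of RBCS2B, −0.48 ± 0.11 on the log2 scale (adjusted p = 0.0587), and RBCS1B, −0.47 ± 0.12 (adjusted p = 0.0811), followed by SBPASE, −0.23 (adjusted p = 0.298), and PRK, −0.33 (adjusted p = 0.32). With RBCS1B, RBCS2B and RBCS3B summed, the difference was −0.24 ± 0.14 (limma, adjusted p = 0.565). For the sum of all 4 copies it was −0.21 (adjusted p = 0.776). RBCS2B was called with a minimum value of 5, with scaling to totals, with quantile normalization, without wild type replicate 1 of 12 days and without hag2 msi2 msi3 replicate 2 of 12 days (adjusted p from 0.0191 to 0.0435). RBCS1B was called with quantile normalization (adjusted p = 0.0442) and without wild type replicate 1 of 12 days (adjusted p = 0.0307).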

How the data were processed

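RNA sequencing values of 24 libraries were used. The tools listed in the submitters' processing notes are HISAT2, bcl2fastq and edgeR, with TAIR10 as the build and no versions. For the read counter, the annotation and the strand setting, the sources used here give nothing. The deposited values are a signal, normalized gene-level read values from the authors that are not whole numbers, so no count test was run and the design planned for values that are not counts was used. At 20 days, 72771 positive values below a cutoff far under the filter's minimum of 1 were treated as rounding residue and set to 0.

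Tested genes reached a value of 1 in 3 or more libraries of an age (24305 at 12 days, 23707 at 20 days). Values were taken as log2(value + 1), a scale that understates the change of low genes, and fitted with limma 3.58.1 (lmFit, eBayes with trend) in R 4.3.3. All groups of an age were fitted together, and the interaction between ages over 22878 genes. Calls needed a p below 0.05 after Benjamini-Hochberg adjustment over all genes tested, and "rose" and "fell" mean called. Shares of the RBCS pool were compared by 2-sided exact permutation tests (scipy 1.17.1). Figures were drawn with matplotlib 3.10.9. The fits were also run on simulated data with normal noise and few changed genes, which does not test them where most genes change. Motifs, coordinates and sequences came from RefSeq TAIR10.1, with genes matched by locus tag.

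The members and lists were chosen with earlier results of these data known. All 10 members are named, and for each list the lowest and highest gene of a comparison, with further genes named after their values were seen. Alternatives changed the pseudocount, filter, scaling, variance trend, groups fitted, replicate block and libraries, and the sum of RBCS copies was added after seeing the data. Replicate numbers did not pair the samples.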

Additional observations from a re-analysis of the deposited data

How the results depend on the processing

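Every call of hag2 nasp against the wild type or nasp kept its direction and its side of the threshold under each setting and without each library. Other calls that ended are named beside their results, and the cause was not tested. With 3 libraries a group and an unknown number of reads, small differences could not be resolved.

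Members called in nasp against the wild type (1 in the report) were 0 with no filter or quantile normalization, and 2 with scaling to totals or in a fit of the compared groups alone. In hag2 nasp against msi2 msi3 nasp (4 in the report) they were 2 without the variance trend and 0 in the compared groups alone, and in nasp against hag2 msi2 msi3 (3) they were 5 with totals. In msi2 msi3 at 20 days (0) they were 1 with a minimum value of 5, totals, quantile normalization or the compared groups alone. In the interaction (0) they were 1 with a minimum of 5 or totals and 2 with quantile normalization.

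All genes called without the variance trend were 580 in nasp, 553 in 12-day hag2 msi2 msi3, 956 in hag2 nasp against msi2 msi3 nasp, 1022 in msi2 msi3, 509 in hag2 msi2 msi3 at 20 days, 59 in hag2 msi2 msi3 against msi2 msi3 and 41 in the interaction. The counts behind the report were 945, 982, 1539, 1802, 1017, 281 and 188 in the same order. In the compared groups alone, 814 were called in hag2 nasp against msi2 msi3 nasp and 177 between the 20-day mutants, and with no filter 103 in the interaction.

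Measured against RBCS1B alone, the share of RBCS1A differed from the wild type by −0.0668 points in hag2 nasp (8.01 in the whole pool), −0.482 in msi2 msi3 nasp (6.70), −0.670 in 12-day hag2 msi2 msi3 (−2.25) and −0.00897 in the same genotype at 20 days (−2.50).

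Log2 fold changes that changed sign were all without a call. With quantile normalization these were −0.081 (PRK) and −0.015 (FBA2) in nasp, and −0.058 (GAPB) in nasp against hag2 msi2 msi3. In msi2 msi3 at 20 days they were 0.14 (RBCS3B), 0.0024 (RCA), 0.020 (GAPA), 0.019 (GAPB) and 0.033 (FBA2). In hag2 msi2 msi3 against msi2 msi3 they were −0.096 (PRK) and −0.037 (SBPASE), and in the interaction −0.037 (RCA). With totals they were 0.015 (RCA, msi2 msi3), −0.044 (PRK, hag2 msi2 msi3 against msi2 msi3) and −0.0080 (FBA2, interaction).

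Without each library in turn, members called ranged from 0 to 2 in nasp and 9 to 10 in msi2 msi3 nasp against the wild type, 0 to 4 in hag2 nasp against msi2 msi3 nasp, 2 to 3 in nasp against hag2 msi2 msi3, 0 to 1 in hag2 msi2 msi3 at 20 days and 0 to 2 in the interaction, and were 2 each time in hag2 msi2 msi3 at 12 days. All genes called ranged from 519 to 721 in nasp, 441 to 751 in 12-day hag2 msi2 msi3, 911 to 1861 in hag2 nasp against msi2 msi3 nasp, 1586 to 2124 in nasp against hag2 msi2 msi3, 1078 to 1351 in msi2 msi3, 571 to 1308 in hag2 msi2 msi3 at 20 days, 104 to 324 in hag2 msi2 msi3 against msi2 msi3 and 94 to 314 in the interaction. Uncalled log2 fold changes that crossed 0 ranged from −0.088 to 0.020 (GAPA, nasp) and −0.0043 to 0.082 (RCA, 12-day hag2 msi2 msi3). In nasp against hag2 msi2 msi3 they ranged from −0.074 to 0.087 (RBCS1A), −0.16 to 0.0098 (RBCS3B), −0.024 to 0.10 (GAPB), −0.11 to 0.011 (PRK) and −0.11 to 0.057 (FBA2). In msi2 msi3 they ranged from −0.25 to 0.10 (RBCS3B), −0.072 to 0.048 (RCA), −0.11 to 0.022 (GAPA) and −0.12 to 0.012 (FBA2). In hag2 msi2 msi3 at 20 days they ranged from −0.015 to 0.21 (RBCS1A) and −0.016 to 0.13 (GAPB), in hag2 msi2 msi3 against msi2 msi3 from −0.095 to 0.12 (PRK), and in the interaction from −0.062 to 0.055 (GAPA) and −0.054 to 0.081 (FBA2).

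Same-numbered samples correlated between −0.0557 and 0.0956 at 12 days and between −0.033 and 0.0524 at 20 days, with 0 pairs over 0.1, so the replicate numbers were not taken to pair the samples. A replicate block left the members called at 10 in each mutant combining nasp with another mutation, 1 in nasp, 3 in 12-day hag2 msi2 msi3 and 0 at 20 days, as without it. Over all genes it called 16168 in hag2 nasp, against 16117 without it.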
